A study of Mus musculus with 3 samples.

Results

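*Emilin1*, *Ecm1*, *Fn1*, *Fbln1*, *Vtn*, and *Tgfbi* encode structural glycoproteins of the ECM, and they are 6 of the 84 ECM genes whose mm9 positions and strands the study lists for mouse. They were taken by name, for the kind of protein they encode, but with earlier results of these data known. The H3K27ac peaks around them were examined in TA muscle, a fast muscle of the lower leg, of C57/BL6 mice kept untreated until 2, 10, or 20 months of age. Each age gave 1 library. The methods give the middle age as a range that begins at 10 months, and neither they nor the labels say how many mice gave the chromatin of a library. The extraction protocol in the labels names activated SCs and RNA, while the tissue label and the methods name TA muscle. Each peak was assigned to the nearest TSS of the 84 genes when its edge lay within 100 kb, and it was called a promoter peak up to 2.5 kb and a distal peak beyond. A distal peak may lie nearer to a gene that is not in the list, since such genes were left aside, and the tissue was not checked against muscle markers because only ECM gene positions were used.

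H3K27ac is an acetylation of histone H3 that marks promoters and enhancers in use. Elastic fibers, made of elastin on a scaffold of microfibrils, let the connective tissue around myofibers recoil after stretch. Emilin1 sits at the border between elastin and microfibrils, fibulin-1 (*Fbln1*) binds elastic fibers and basement membranes, and Ecm1 is a secreted glycoprotein that binds other matrix proteins. Fibronectin (*Fn1*) forms the fibrils on which collagen and other matrix proteins are laid down and to which integrins attach. Vitronectin (*Vtn*) is an adhesion protein made mostly by the liver and found in plasma and matrix, and Tgfbi is a matrix protein induced by TGF-β that binds integrins and collagen. Those of these proteins that are made in muscle come largely from fibroblasts and other mononuclear cells. Chromatin of whole muscle mixes many cell types, so more cells of a type and more of the mark per cell cannot be told apart.

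Promoter sequences of 3 genes are shown because a peak lay on the TSS, or within 50 bp of it, in at least 1 library. The sequences are those of RefSeq (GRCm38.p6, 250 bases before the start to 50 after it), written 5′ to 3′ along the gene, and 5 of the 6 genes had an entry in the table. The peaks are on mm9, and no position was converted between the builds. Capitals mark matches on either strand to the TATA box, the CCAAT box, the GC box, and the AP-1 site. The TATA box was searched as TATAAA, which 13.6% of the 32851 promoters in the table held. The GC box was searched as GGGCGG (held by 35.7%), the AP-1 site as TGANTCA (held by 7.81%), and the CCAAT box by its 5 letters (held by 37.4%). They lie at chr5:30913536-30913835 on the plus strand (*Emilin1*), chr3:95739520-95739819 on the minus strand (*Ecm1*), and chr13:56609336-56609635 on the plus strand (*Tgfbi*).
Emilin1: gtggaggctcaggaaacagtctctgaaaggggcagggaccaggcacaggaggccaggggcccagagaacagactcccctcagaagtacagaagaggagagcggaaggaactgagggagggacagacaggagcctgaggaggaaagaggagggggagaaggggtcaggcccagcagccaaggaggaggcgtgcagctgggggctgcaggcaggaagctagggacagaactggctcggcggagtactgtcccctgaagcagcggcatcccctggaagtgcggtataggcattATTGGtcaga
Ecm1: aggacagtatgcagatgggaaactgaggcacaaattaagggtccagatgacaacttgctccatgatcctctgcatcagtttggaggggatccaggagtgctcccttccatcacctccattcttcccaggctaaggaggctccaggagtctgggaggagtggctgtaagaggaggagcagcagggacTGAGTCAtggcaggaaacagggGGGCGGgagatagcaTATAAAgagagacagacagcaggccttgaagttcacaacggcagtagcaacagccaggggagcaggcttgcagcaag
Tgfbi: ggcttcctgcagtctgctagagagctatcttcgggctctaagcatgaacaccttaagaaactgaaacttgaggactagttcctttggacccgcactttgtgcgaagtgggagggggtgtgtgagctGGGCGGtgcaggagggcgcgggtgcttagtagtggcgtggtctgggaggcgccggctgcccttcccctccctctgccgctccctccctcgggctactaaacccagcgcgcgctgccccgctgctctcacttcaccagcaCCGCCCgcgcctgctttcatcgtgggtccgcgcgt
The window of *Ecm1* held an AP-1 match at −64, a GC box at −42, and a TATA box at −27, counted from the start to the first base of the match. That of *Emilin1* held none of these and a single CCAAT match, on the other strand at 40. *Tgfbi* had GC boxes at −124 and 15, no TATA box, and 22 CpG, against 6 in *Emilin1*, 2 in *Ecm1*, and a median of 7 over all promoters. A match describes letters in this window and is not a measured binding site.

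The 3 libraries differed in depth and in how their peaks were called. The lists held 17884, 35221, and 44752 peaks at 2, 10, and 20 months. The depth was estimated from the background values of the lists and was not checked against read files. It came to about 15933000, 18889000, and 26302000 reads, with a mean coverage of the genome of 1.26, 2.24, and 2.5 reads. Summit heights are therefore given as multiples of that mean. At 2 months 78.3% of all peaks had been called against the genome mean itself, whereas at 10 and 20 months this held for 2.87% and 4.89%, and the others were called against a higher local background. The lowest summit listed was 8 reads (6.34 times the mean) at 2 months and 10 reads at the later ages (4.46 and 3.99 times). Age and library cannot be told apart in this design, and no test of age was possible.

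The 6 genes together had 33, 40, and 62 distal peaks at 2, 10, and 20 months. *Emilin1* had 6, 17, and 22 distal peaks in the order of age, *Vtn* had 5, 7, and 10, and *Tgfbi* had 2, 3, and 8. *Fn1* had none at 2 months and 2 at each later age, and *Fbln1* had 2 at 20 months only. *Ecm1* went the other way, with 20 in the youngest muscle, 11 in the middle one, and 18 in the oldest. Thus 4 genes had more distal peaks at 10 than at 2 months, against 57.1% of the 84 listed genes, and 5 had more at 20 than at 2 months, against 67.9%. Fewer distal peaks were found for *Ecm1* alone among the 6, against 7.14% (10 months) and 2.38% (20 months) of the 84 genes. Its difference of −2 at 20 months was 0 in the better 50% of each list by q. It turned to 2 when peaks within 1 kb were merged, 3 when summits under 10 times the mean were left out, and 4 within 50 kb. The 10-month difference of −9 shrank to −1 with merging and −3 at 10 times the mean, and it turned to 3 within 50 kb. From 10 to 20 months the count was higher for 5 genes, all but *Fn1*, against 56% of the list. A distal peak of any kind was present at 4, 5, and 6 of the genes with increasing age, against 48.8%, 67.9%, and 75% of the 84.

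**Figure D1:**
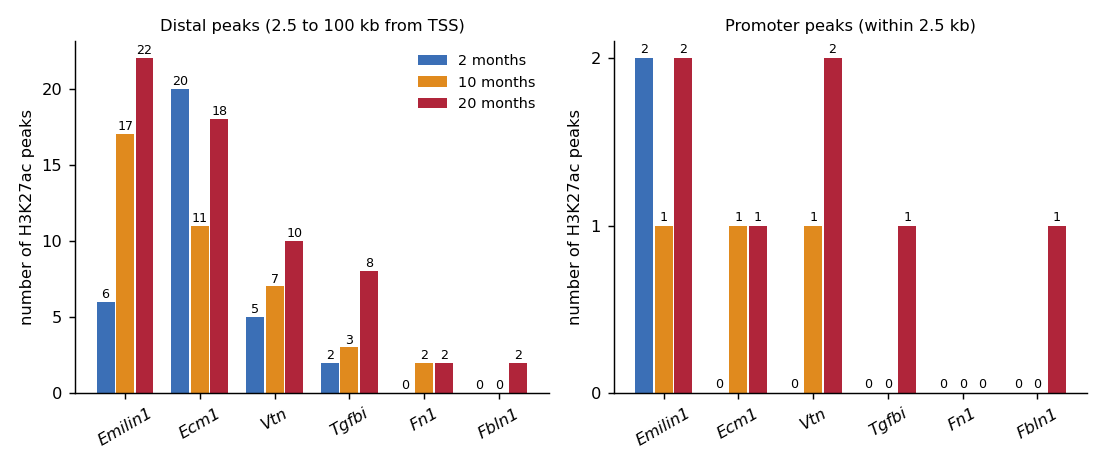
Number of distal (left) and promoter (right) H3K27ac peaks of each gene at 2, 10, and 20 months, 1 library per age, with the number printed over each bar. *Emilin1* went from 6 to 22 distal peaks and *Ecm1* from 20 to 18, and promoter peaks were on 1 gene at 2 months and on 5 at 20 months.

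As a share of all peaks in each list, the distal peaks of the 6 genes made up 0.185% of the 2-month list (exact 95% interval 0.127 to 0.259), 0.114% of the 10-month list (0.0811 to 0.155), and 0.139% of the 20-month list (0.106 to 0.178). These intervals cover counting error only, and they overlap. The genes also held 17.0%, 11.5%, and 13.5% of all distal peaks of the 84 genes. With the lists brought to equal length by q value, the numbers became 33, 26, and 29, with 20, 6, and 8 at *Ecm1*, while 4 genes had more distal peaks at each later age than at 2 months. By summit reads they became 33, 26, and 32, with 20, 8, and 14 at *Ecm1*, and 2 genes had more at 10 months and 1 at 20 months.

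*Emilin1* and *Ecm1* held most of these peaks, with shares of 78.8%, 70%, and 64.5% from the youngest to the oldest. *Ecm1* ranked highest of the 84 genes at 2 months and stood at rank 10 and rank 4 later, while *Emilin1* stood at ranks 10, 3, and 2. The median of the 84 genes was 0, 2.5, and 3 distal peaks. *Fn1* and *Fbln1* stood at or below the median at each age. The distal peaks lay mostly outside the genes, with 8, 15, and 25 upstream of the TSS, 25, 25, and 36 beyond the 3′ end, and 1 within a gene (*Emilin1*, at 20 months).

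**Figure D2:**
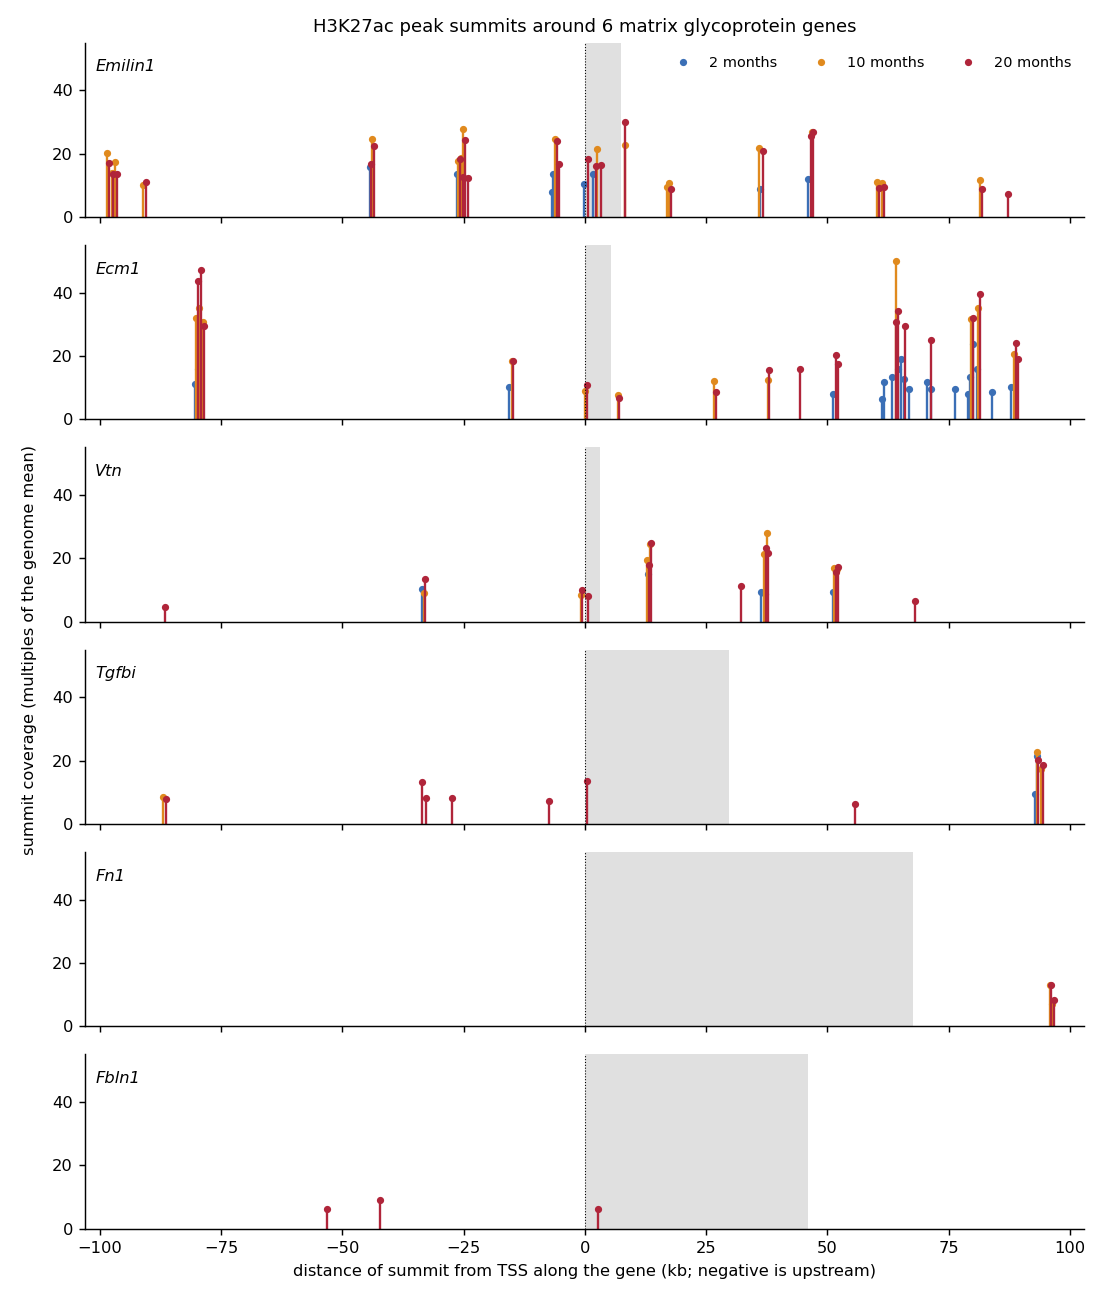
Summit coverage of every assigned peak (vertical axis, multiples of the genome mean) by distance from the TSS along the gene in kb, upstream negative, with the transcribed length shaded; lines of the 3 ages are set slightly apart so that they can be told apart. *Ecm1* has its tallest peaks in a group 60 to 90 kb downstream and near −80 kb, with lower ones between them, whereas the 2 distal positions of *Fn1* lie beyond 95 kb.

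When touching peaks of the 3 lists were joined into regions, the genes had 69 distal regions. Of these, 18 had peaks in every library (20.1% of the 52693 regions of the genome did), 20 at 10 and 20 months (33.8%), 16 at 20 months only (24.6%), 4 at 2 and 20 months (2.52%), 0 at 2 and 10 months (0.404%), 1 at 10 months only (10.4%), and 10 at 2 months only (8.13%). *Emilin1* had 11 regions with peaks at both later ages and none with a peak at 2 months only. All but 1 of the 10 regions with a peak at 2 months only belonged to *Ecm1*, and the other was near *Tgfbi*. The 16 regions at 20 months only were spread over 5 genes, with 5 at *Tgfbi* and 3 each at *Emilin1*, *Ecm1*, and *Vtn*.

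**Figure D3:**
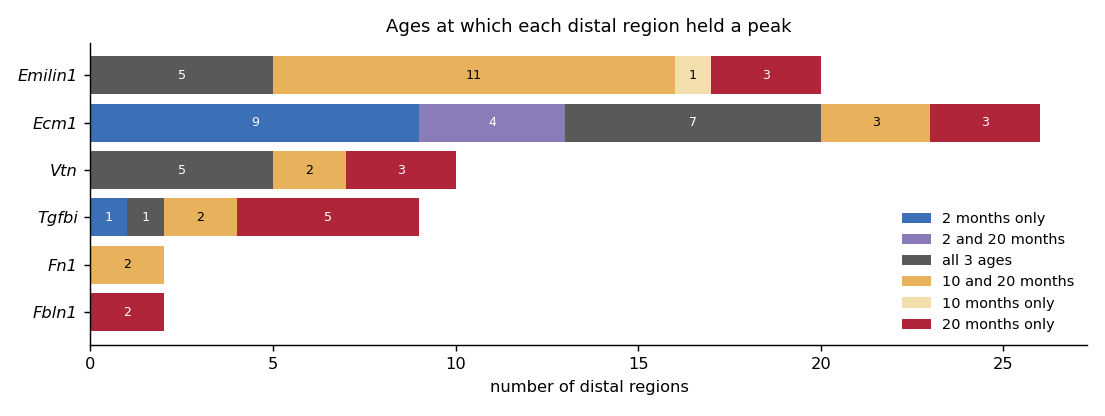
Number of distal regions of each gene (horizontal axis) by the ages at which the region held a peak, coded by color. The 9 regions with a peak at 2 months only stand out in *Ecm1*, and the 11 with peaks at 10 and 20 months in *Emilin1*.

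At *Ecm1*, the group of peaks between 60 and 90 kb downstream of the TSS accounted for 16 of the 20 distal peaks of the 2-month library, but for 4 of 11 and 8 of 18 of the later ones. This side of *Ecm1* is followed in the RefSeq annotation by *Adamtsl4*, *Mcl1*, *Ensa*, and *Golph3l*. The strongest region of *Ecm1* shared by all ages was chr3:95478440-95479488 (mm9), 64.0 kb downstream. Its highest summit held 20, 112, and 86 reads with increasing age, or 15.9, 49.9, and 34.4 times the genome mean. This summit lay at 65.0 kb at 2 months and at 64.2 and 64.3 kb later. The ratios thus compare different positions within the region. They were 3.15 for 10 over 2 months (exact 95% interval 1.95 to 5.35) and 2.17 for 20 over 2 months (1.32 to 3.72). The ratio of 20 over 10 months was 0.688 (0.513 to 0.919), and this was the single shared distal region of the 6 genes whose interval lay below 1 in that comparison, against 0.557% of all shared regions.

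The peaks of the group were more numerous but lower at 2 months. Their summits began at 6.34, 20.5, and 19.2 times the mean at the 3 ages, and they covered 6251, 2426, and 3430 bp. Of the 17 regions in the group, 9 had a peak at 2 months only, and 8 of these were between 6.34 and 12.7 times the mean. The ninth, chr3:95462732-95463460, reached 23.8 times (30 reads) and lay 216 bp from a peak of the later ages on one side and 68 bp on the other. The background that the peaks of the group were called against had medians of 1.08, 12.9, and 12 times the genome mean at the 3 ages. Among all peaks called against a background within 10% of the later medians, the lowest summit was 22.3 times the mean for the 342 such peaks of the 10-month library and 21.2 times for the 454 of the 20-month library. The *Ecm1* peaks near 88 kb had a lower background (15.5 reads at 10 months, 16.4 and 16.8 at 20 months) and summits of 20.5 times the mean at 10 months, and 19.2 and 24.0 times at 20 months. The later background at the 8 low regions themselves was not measured, and its part in the smaller number of peaks was not tested. The limit of 50 kb, under which *Ecm1* had more peaks at the later ages, leaves this group out.

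**Figure D4:**
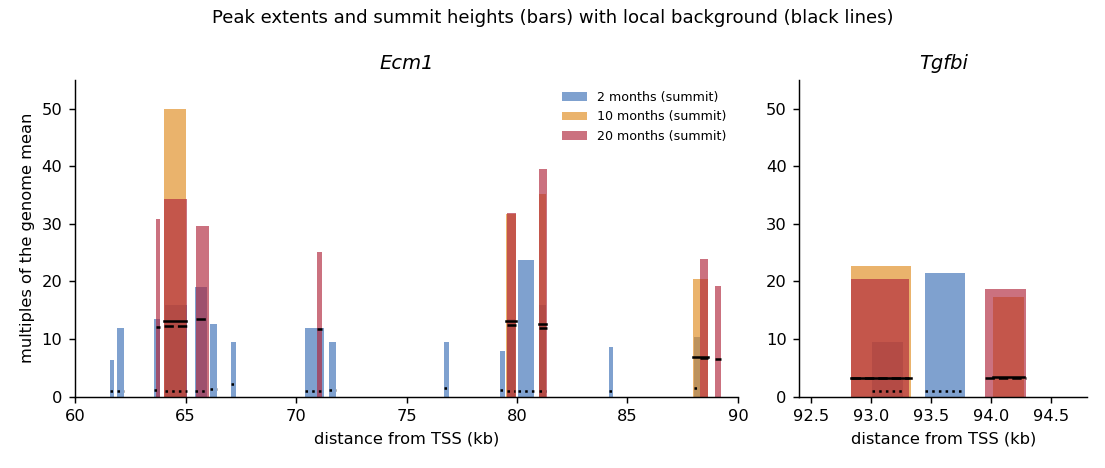
Peaks 60 to 90 kb downstream of *Ecm1* (left) and near 93 kb downstream of *Tgfbi* (right), by distance from the TSS in kb; the width of a bar is the extent of the peak, its height the summit in multiples of the genome mean, and the black lines the background used in calling (dotted for 2, solid for 10, and dashed for 20 months). At *Ecm1* the background lies near 1 at 2 months and well above it under the peaks of the later ages.

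On the other side of *Ecm1*, where the annotation places *Tars2*, *Rprd2*, *Prpf3*, and *Mrps21*, lay a pair of upstream regions. They had the highest 20-month summits of all the distal regions of the 6 genes. The one at −80.0 kb (chr3:95623454-95624182) held 14, 72, and 109 reads at its summit, or 11.1, 32.1, and 43.5 times the mean. Its ratio of 20 over 2 months was 3.92 (2.24 to 7.41), the highest of the 18 shared distal regions. Beside it, the region at −78.3 kb held 20, 79, and 118 reads, with a ratio of 2.97 (1.84 to 5.04). All 7 shared regions of *Ecm1* were higher at 10 and at 20 months than at 2 months, as were nearly all shared regions of the genome (93.5% and 95.8%). A region counts as shared only when a peak was called at every age. In the downstream group, called summits began at 20.5 and 19.2 times the mean at 10 and 20 months. The 4 shared regions there stood at 10.3 to 15.9 times at 2 months, so their ratios cannot show a rise apart from the calling. The upstream pair was called against 15.3 to 15.5 reads at 10 months and 16.5 to 16.7 at 20 months. The downstream peaks near 88 kb had a like background, and their summits began at those 20.5 and 19.2 times. At 2 months the upstream pair stood lower, at 11.1 and 15.9 times, so the same limit holds for its ratios.

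*Emilin1* had peaks on both sides, 12 upstream, 1 within the gene, and 9 beyond its 3′ end at 20 months. Upstream of it the annotation places *Ost4*, *Agbl5*, *Tmem214*, and *Mapre3*, and downstream *Khk*, *Cgref1*, *Preb*, and *Tcf23*. Its strongest shared region, chr5:31261891-31263370, 45.7 kb downstream, held 15, 60, and 67 reads at the summit, or 11.9, 26.8, and 26.8 times the mean. The ratio over 2 months was 2.25 at both later ages (1.26 to 4.27 and 1.27 to 4.24). These summits were not at the same position, with 46.3 kb at 2 months and 46.8 kb at both later ages. The 20-month peak that overlapped the 2-month peak held 64 reads. The other 4 shared regions of *Emilin1* lay at −43.6, −25.9, −6.04, and 35.6 kb, with ratios of 20 over 2 months from 1.36 to 2.38. The 4 regions between −98.2 and −90.7 kb and the one 7.76 kb downstream had peaks at 10 and 20 months and none at 2 months. The latter held 51 and 75 reads, or 22.7 and 30.0 times the mean, and was the highest *Emilin1* summit at 20 months.

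*Vtn* had 5 shared distal regions, 1 upstream and 4 beyond its 3′ end, where *Sebox*, *Tmem199*, *Poldip2*, and *Tnfaip1* follow in the annotation. The strongest, chr11:78325781-78326381, 13.2 kb downstream, held 19, 55, and 62 reads, or 15.1, 24.5, and 24.8 times the mean. Its ratios over 2 months were 1.63 (0.951 to 2.90) and 1.64 (0.970 to 2.91), so that both intervals included 1. The *Vtn* region at −33.0 kb held 13, 20, and 34 reads, and it was the single shared distal region of the 6 genes lower at 10 than at 2 months in multiples of the genome mean (ratio 0.865, 0.410 to 1.89), but was higher in RPM (reads scaled to the library total, ratio 1.3). It was also the one region past 1.5-fold from 10 to 20 months (1.52, 0.852 to 2.79; 1.22 in RPM), against 3.43% of all shared regions, and counting error covers both differences.

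*Tgfbi* had a single region shared by all ages, chr13:56803793-56804297, 92.8 kb downstream on the side of *Smad5*. It held 12, 51, and 51 reads, or 9.52, 22.7, and 20.4 times the mean, with ratios of 2.39 (1.26 to 4.92) and 2.14 (1.13 to 4.41) over 2 months. The 2-month peak next to it, chr13:56804412-56804740, reached 21.4 times the mean (27 reads) and had no counterpart at the later ages, although peaks of those ages lay 114 and 170 bp away on its sides. The other *Tgfbi* regions were lower, and 5 of them had a peak at 20 months only, 4 upstream between −33.9 and −7.69 kb and 1 at 55.3 kb, with 16 to 33 reads at the summit.

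*Fn1* had no promoter peak at any age. Its distal peaks were in 2 adjoining regions beyond the 3′ end, where *Atic* and *Abca12* follow. The one at chr1:71603788-71604306, 95.5 kb from the TSS, held 29 reads at 10 months and 33 at 20 months (12.9 and 13.2 times the mean). That at chr1:71603178-71603639, 96.2 kb away, held 16 and 21 reads (7.14 and 8.39 times). Neither had a peak at 2 months. *Fbln1* had a distal peak at chr15:84982865-84983178 (−53.2 kb) with 16 reads and another at chr15:84993623-84993904 (−42.5 kb) with 23 reads, both at 20 months only. They were low, at 6.39 and 9.19 times the mean.

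At the 18 distal regions shared by the 3 libraries, the summits were higher at the later ages in multiples of the genome mean. The level of a region was its highest summit at each age, and these summits were not always at the same position. These regions had to be called at every age. The background of all peaks had medians of 1.00, 3.2, and 2.94 times the genome mean at 2, 10, and 20 months. Regions that stayed level or fell could thus be missed at the later ages. The share of regions found higher therefore depends on this choice, here and over all shared regions. The median ratio was 2.22 for 10 over 2 months, with 17 of 18 regions higher, and 2.21 for 20 over 2 months, with 18 of 18 higher, against 93.5% and 95.8% of all shared regions. The 95% interval of the ratio lay above 1 in 12 regions in each comparison, against 58.1% and 65.8% of the shared regions of the genome. At least 2-fold differences were found in 10 regions for 10 over 2 months, against 47.1% of the 10596 shared regions of the genome, and in 11 for 20 over 2 months, against 54.4%. Over all shared regions the median ratios were 1.95 and 2.08, and over the 101 shared distal regions of the other 78 ECM genes 2.08 and 2.24. The medians of the 6 genes therefore lay close to the shift shown by shared regions everywhere, and divided by it they were 1.14 and 1.06. From 10 to 20 months the median ratio was 1.01 on this scale and 0.807 in RPM. On the first scale 11 of 18 regions were higher at 20 months, against 63% of all shared regions. For this step no interval lay above 1, against 3.35% of all shared regions, and no region was lower by 1.5-fold, against 0.585%. All shared regions had a median of 1.06 on that scale, and a change of scale multiplies every region alike.

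**Figure D5:**
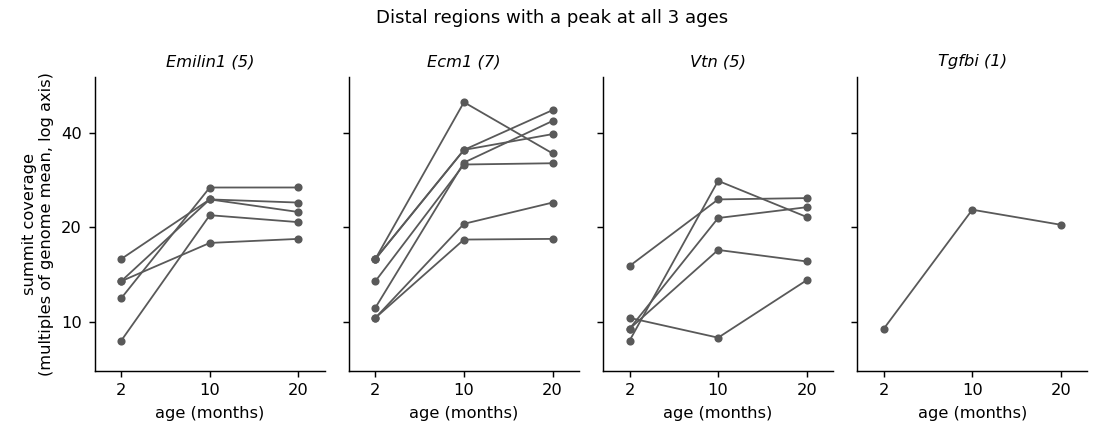
Summit coverage (multiples of the genome mean, log axis) by age in months for the distal regions shared by the 3 libraries, 1 line per region, with the number of regions beside each gene's name. Summits at 2 months lie at 8.72 to 15.9 times the mean, and all but 1 line (*Vtn*, at −33.0 kb) go up from 2 to 10 months on this scale.

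By gene, the median ratios for 10 and 20 over 2 months were 1.82 and 1.78 at *Emilin1* (5 regions), 2.22 and 2.37 at *Ecm1* (7 regions), and 1.78 and 1.64 at *Vtn* (5 regions). *Ecm1* was the gene with the widest range for 20 over 2 months, 1.78 to 3.92. Differences between the genes were not tested. The background of the distal peaks also differed between ages and genes. In multiples of the genome mean its median was 1.00, 3.80, and 3.56 for *Emilin1*, 1.05, 6.92, and 6.62 for *Ecm1*, 1.08, 2.62, and 2.15 for *Vtn*, and 1.00, 3.34, and 2.01 for *Tgfbi*, against 1.00, 3.2, and 2.94 for all peaks.

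Promoter peaks were found on 1, 3, and 5 of the 6 genes at 2, 10, and 20 months, against 26.2%, 34.5%, and 50% of the 84 genes. With lists of equal length by q, the number at 20 months was 0. *Emilin1* was the gene with promoter peaks at every age, though not at the same places. The region on its TSS, chr5:31216056-31216600, which spans the mm9 start of the gene, held 13 reads at 2 months and 46 at 20 months (10.3 and 18.4 times the mean). A second one at 1.70 kb (chr5:31217856-31218181) held 17 and 40 reads at these ages (13.5 and 16.0 times), and the ratios of 20 over 2 months were 1.78 (0.947 to 3.6) and 1.19 (0.657 to 2.23). The 10-month library had its promoter peak at 2.43 kb instead (chr5:31218592-31219133), with 48 reads there and 41 at 20 months. The 20-month peak of this region began 2505 bp from the TSS and was counted as the distal peak within the gene. With a promoter limit of 1 kb, 2 genes had a promoter peak at 10 months, and *Emilin1* was not among them. That 10-month peak was called against a background of 6 times the genome mean, and the lowest of the 2937 10-month summits with a like background was 12.9 times. The 10-month background at the TSS itself was not measured.

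The *Ecm1* promoter had a peak starting 13 bp inside the gene (chr3:95543217-95543479) at 10 and 20 months, with 20 and 27 reads (8.92 and 10.8 times the mean). The *Tgfbi* peak began 42 bp inside the gene (chr13:56711006-56711196) and was found at 20 months only, with 34 reads (13.6 times). *Vtn* had a region just upstream at −0.570 kb (chr11:78311447-78312052) with 19 reads at 10 months and 25 at 20 months (8.47 and 9.99 times), and another at 0.213 kb (chr11:78312835-78313027) with 20 reads at 20 months. *Fbln1* had a peak of 16 reads (6.39 times) at 2.26 kb inside the gene (chr15:85038644-85038844) at 20 months. Apart from those of *Emilin1*, the promoter summits of the later ages lay below the medians of all peaks in their libraries (15.6 times at 10 months and 14.0 times at 20 months). Except for *Emilin1*, no gene had a promoter peak at 2 months, when the lowest summit listed was 6.34 times the mean.

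Related genes of the ECM list were set beside these counts. Of 11 other matrix glycoproteins and proteoglycans, 6 had more distal peaks at 20 than at 2 months, 5 had the same number, and 0 had fewer, with totals of 22, 41, and 47. The 3 with the largest increase were *Spp1* (osteopontin) with 1, 6, and 9, *Sparc*, a collagen-binding glycoprotein, with 7, 12, and 14, and *Thbs3*, a thrombospondin, with 14, 19, and 20. Of 5 integrin subunits that take part in binding such glycoproteins, 4 had more and 1 had the same number, with totals of 4, 17, and 19. *Itga5*, which pairs with *Itgb1* as a fibronectin receptor, had 1, 8, and 8 distal peaks, *Itgb1* had 1, 3, and 5, and *Itgb3*, a subunit of a vitronectin receptor, had 1, 4, and 4. The median change from 2 to 20 months was 3.5 distal peaks for the 6 genes, 1 for the other glycoproteins, 3 for the integrins, and 2 for all 84 genes.

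Among the other 78 genes, likeness was measured as the same presence of promoter and distal peaks at all 3 ages, and then as the smallest summed difference in distal counts. *Emilin1* shared its pattern with 13 genes, of which *Sparc* (difference 14), *Lamb2* (15), and *Lamc1* (17) were nearest. For *Vtn*, *Col1a1* was the nearest of 3 genes, with 6, 5, and 10 distal peaks (difference 3), and for *Fn1* it was *Mmp8* of 5 genes (difference 1). *Ecm1* shared its pattern with 3 genes and was nearest to *Thbs3* (difference 16), while no gene had the pattern of *Fbln1* or *Tgfbi*.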

How the data were processed

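H3K27ac ChIP-seq of TA muscle gave 1 peak list per age. Per the submitters' processing notes, reads were aligned to mm9 with Bowtie2 and peaks called with MACS2 2.1.0. The use of a control library is not given in the sources used here. The authors' deposited columns hold a fold (ratio of summit pileup to background), a −log10 p, a −log10 q, a score that was not used, and the summit position. Gene positions and strands are those of the study's list of 84 ECM genes.

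The analysis ran in Python 3.11.15 (pandas 2.3.3, numpy 2.4.6, scipy 1.17.1; figures in matplotlib 3.10.9). The background and the integer number of reads at each summit were solved from the deposited fold and −log10 p, to 0.001 in −log10 p. This was checked on simulated data, where it returned the reads of 100% of 5000 peaks per list. At 10 and 20 months 1 peak each was not solved and has no summit value. The most frequent background value in a list was taken as the genome mean. With the smallest peak width (148, 222, and 178 bp at 2, 10, and 20 months) and the preset mouse genome size of MACS2, it gave an estimate of the depth. RPM values rest on this estimate. Peaks sharing at least 1 bp were joined into regions, and a region's level was its highest summit. Shares have Clopper-Pearson and ratios exact conditional binomial 95% intervals. No p-value was computed, since each age has 1 library.

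The members and lists were chosen with earlier results of these data known. Regions named are every promoter region, the shared distal region of each gene with the highest mean coverage, and every distal region of a gene with 3 or fewer. The other regions named, the comparison of backgrounds, and the lists of equal length by summit reads were picked with their values in view. The genes named from the related lists are the 3 with the largest increase, and for pattern likeness the nearest by the smallest difference. Alternatives were other inner (5 kb) and outer (50 kb) limits, counting for every listed TSS, merging within 1 kb, the better 50% of each list by q, equal list lengths, a summit of at least 10 times the genome mean, promoter limits of 1 and 5 kb, RPM, division by the median of all shared regions, and an overlap of 50%. No genome of mm9 was used, so no peak was placed in an exon or intron.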

Additional observations from a re-analysis of the deposited data

How the results depend on the processing

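Distal totals at 2, 10, and 20 months (33, 40, and 62) were 11, 19, and 30 within 50 kb, and 17, 26, and 34 in the better 50% of each list by q. Merging within 1 kb gave 20 and 40 at 2 and 20 months, and a summit of at least 10 times the mean gave 20 at 2 months. Lists of equal length gave 26 and 29 at 10 and 20 months by q, and 26 and 32 by summit reads, an alternative chosen after seeing the data, under which 2 and 1 genes had more distal peaks than at 2 months (4 and 4 by q). Genes with a promoter peak at 10 and 20 months numbered 1 and 1 in the better 50%, 1 and 0 with equal lists by q, 1 and 1 with equal lists by reads, and 1 and 3 at 10 times the mean. The *Ecm1* difference from 2 months (−9 at 10 months, −2 at 20 months) turned to 3 and 4 within 50 kb. At 20 months it turned to 2 with merging and 3 at 10 times the mean, and was 0 in the better 50% by q. At 10 months it was −1 with merging, −3 at 10 times the mean, −5 in the better 50%, and −14 with equal lists by q. The median ratios over 2 months were 1.80 and 1.78 within 50 kb, and 3.33 and 2.66 in RPM, where 20 over 10 months was 0.807. Divided by the median of all shared regions, they were 1.14 and 1.06, and the named regions gave 1.15 and 1.08 (*Emilin1*), 1.62 and 1.04 (*Ecm1*), 0.835 and 0.789 (*Vtn*), and 1.23 and 1.03 (*Tgfbi*). The causes were not tested. The other 68 values of main results moved by less than 1.5 times or within their interval. Of 240 distal peak counts and differences of single genes, 134 did so, 102 moved, and 4 turned direction. The named *Emilin1* region was not shared at 50% overlap and gave no value there. No paired analysis was possible because each age has 1 library and no test was made, and no library could be left out.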

Other observations

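Regions with a peak at 2 months only that sit between peaks of the later ages were also found elsewhere in the genome. With a later peak within 1 kb on both sides there were 542, of which 539 lay on autosomes. Of the 10 distal regions of *Ecm1* and *Tgfbi* with a peak at 2 months only, 2 had a peak of a later age within 1 kb on both sides (20%) and 5 on at least one side (50%). Over all 4282 regions with a peak at 2 months only, these shares were 12.7% and 49.1%, and over the 3735 of them on autosomes, where the 10 regions lie, 14.4% and 56.1%. For *Emilin1*, the lowest 20-month summit among the 3426 peaks with a background like that of its promoter was 11.6 times the genome mean. In GC content the RefSeq promoter windows of *Emilin1* (61.7%) and *Tgfbi* (63.3%) lay above the median of all windows (52.7%), and that of *Ecm1* was 54.7%.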
